A study of Mus musculus with 15 samples.

Results

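The expression of 9 genes of short-chain fatty acid transport and sensing was examined in the mouse cecum after antibiotic-induced microbiome depletion (AIMD). They were taken by symbol from the 45808 rows of the cecal gene table, for their known roles, with earlier results of these data known. There were 5 genes of transport, namely the monocarboxylate carriers Slc16a1, Slc16a3, Slc5a8 and Slc5a12 and the carrier chaperone Bsg, and 4 receptors, Ffar2, Ffar3, Hcar2 and Hcar1. All 9 were above 0 in at least 1 mouse, and 5 of them passed the filter on low values.

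The animals were wild-type male C57BL/6 mice on normal chow, 20 weeks old by the labels, while the age at the start of gavage in the study's methods and the days of treatment add up to a younger age. The AIMD mice (n = 7) had been gavaged 2 times a day for 30 days with ampicillin, vancomycin, metronidazole, neomycin and the antifungal amphotericin B, and the vehicle-treated mice (n = 8) with water. Poly-A RNA of the emptied cecum was sequenced, 1 library for each mouse. The drugs and the loss of microbes came together in the AIMD group and cannot be told apart, and neither the cage nor the hour of sacrifice of a mouse was given.

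Gut bacteria ferment fiber to acetate, propionate and butyrate, which reach high concentrations in the cecum and colon and are a main fuel of the absorptive colonocytes. MCT1 (Slc16a1) and MCT4 (Slc16a3) carry monocarboxylates together with a proton and need basigin (Bsg) to reach the plasma membrane, whereas SMCT1 (Slc5a8) and SMCT2 (Slc5a12) couple the same substrates to sodium, SMCT1 with the higher affinity. MCT4 is best known for the export of lactate from glycolytic cells. FFAR2 and FFAR3 are G protein-coupled receptors of acetate, propionate and butyrate, HCAR2 responds to butyrate, β-hydroxybutyrate and niacin, and HCAR1 responds to lactate.

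The libraries held 8681654 to 18113164 reads in AIMD mice and 4374618 to 14409830 in vehicle-treated mice, as recovered from the FPKM. The AIMD group was thus deeper (two-sided exact permutation p = 0.0345). FPKM are fragments per kilobase of exon per 1000000 reads, here with library sizes already scaled between mice. Markers of absorptive colonocytes were abundant in every mouse, with a summed FPKM of 29251 to 45773 over 8 genes in AIMD and of 32039 to 42283 in vehicle-treated mice. Vehicle replicates 5, 7 and 8 stood apart in 1 marker of the small intestinal enterocyte, the ileal bile acid-binding protein Fabp6, with 1041, 1062 and 1718 FPKM against at most 69.8 in the other vehicle-treated mice and 225 in AIMD mice. The other 6 markers of that list summed to 17.9 to 41.4 FPKM in these 3 libraries, 9.18 to 16.4 in the other vehicle-treated mice and 33.1 to 58.1 in AIMD mice. Vehicle replicate 8 also had the fewest reads and the highest sum of smooth muscle markers, 1913 against 747 in the next library. The clock genes divided each group into 2 sets, AIMD replicates 1 to 3 and vehicle replicates 1 to 4 on one side and the other 8 mice on the other. The 3 libraries high in Fabp6 all lie in the second of these sets, so leaving them out also changes the balance of the clock sets. Values without the 3 libraries and within the clock sets are given with the members.

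Mouse Slc16a1 lies on chromosome 3 (GRCm38, positions 104638668 to 104658462, plus strand), Slc5a8 on chromosome 10 (88885992 to 88929515, plus strand) and Slc16a3 on chromosome 11 (120948480 to 120960868, plus strand). Bsg shares chromosome 10 with Slc5a8 (79704491 to 79711969, plus strand), and Slc5a12 lies on chromosome 2 (110597298 to 110647779, plus strand). The receptor genes sit in pairs, Ffar2 (30818348 to 30823775) and Ffar3 (30854330 to 30856178) on the minus strand of chromosome 7 and Hcar2 (123863570 to 123865499) and Hcar1 (123876736 to 123880020) on the minus strand of chromosome 5. Hcar2 and Hcar1 are adjacent and separated by 11236 bases. Of the 50-base windows of the 9 genes' transcripts, only 0.43% of those of Slc5a12 and 0.32% of those of Ffar2 also occur in transcripts of another gene, so neighbours and paralogs shared few or no reads of this length. Slc16a1 overlaps the predicted genes Gm43581 and Gm43585 on its own strand.

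The promoters of the 3 carriers whose levels differed most in size and direction are shown because Slc16a1 and Slc5a8 were lower and Slc16a3 was higher in AIMD mice. Each is the RefSeq sequence of 250 bases before and 50 after the start of transcription (GRCm38.p6, 5′ to 3′ on the gene's strand). Capitals mark each ACGTG on either strand, a form of the core of the hypoxia response element. The other form of that core, GCGTG, was neither marked nor counted. The windows are chr3:104638414-104638713 for Slc16a1, chr10:88885742-88886041 for Slc5a8 and chr11:120948817-120949116 for Slc16a3, all on the plus strand. The RefSeq start of Slc16a3 lies 587 bases inside the start of the GENCODE gene.
Slc16a1: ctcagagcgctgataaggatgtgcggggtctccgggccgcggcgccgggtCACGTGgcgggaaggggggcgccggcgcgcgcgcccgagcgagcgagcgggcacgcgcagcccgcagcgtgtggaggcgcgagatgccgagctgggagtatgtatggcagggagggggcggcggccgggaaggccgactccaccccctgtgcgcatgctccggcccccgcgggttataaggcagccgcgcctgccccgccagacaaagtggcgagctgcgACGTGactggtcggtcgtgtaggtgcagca
Slc5a8: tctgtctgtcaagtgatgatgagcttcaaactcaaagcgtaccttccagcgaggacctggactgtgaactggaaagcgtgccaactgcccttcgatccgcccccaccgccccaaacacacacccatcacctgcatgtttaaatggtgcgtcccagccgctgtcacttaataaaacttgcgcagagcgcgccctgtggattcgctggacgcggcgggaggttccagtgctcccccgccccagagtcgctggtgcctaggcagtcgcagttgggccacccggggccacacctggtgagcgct
Slc16a3: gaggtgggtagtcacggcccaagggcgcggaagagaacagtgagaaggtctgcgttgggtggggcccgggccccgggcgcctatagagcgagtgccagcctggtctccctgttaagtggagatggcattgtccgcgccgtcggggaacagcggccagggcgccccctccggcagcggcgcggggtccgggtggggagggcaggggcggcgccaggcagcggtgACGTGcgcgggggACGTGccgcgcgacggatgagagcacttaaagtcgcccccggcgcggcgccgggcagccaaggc

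The Slc16a1 window holds 1 CACGTG, a palindrome that contains ACGTG on both strands, beginning 200 bases before the start (position -200), and 1 other ACGTG at position 21 after it. The Slc16a3 window holds 2 copies of ACGTG that do not overlap, with first bases at positions -27 and -14. The Slc5a8 window holds no ACGTG, though it does hold the uncounted form GCGTG. The Slc16a1 window holds GCGTG too, and the Slc16a3 window does not. It has 3 copies of GGGCGG, the box bound by SP-family factors, against 1 copy in each of the other 2 windows. Over all 32851 promoter windows of the table, ACGTG occurred in 19.6%, 2 or more copies of ACGTG that do not overlap in 2.69%, CACGTG in 7.15% and GGGCGG in 35.7%, all on either strand. The G and C content was 73.7% in Slc16a1, 73.3% in Slc16a3 and 60.7% in Slc5a8, with a median of 52.7% over all windows. These matches describe letters in the windows, and binding was not measured. Of the other members, Ffar2, Ffar3 and Hcar1 had entries in the promoter table, and Bsg, Slc5a12 and Hcar2 had none. The Ffar2 window at the GENCODE start of that gene holds a CACGTG at position -102. The other Ffar2 windows and those of Ffar3 and Hcar1 hold no ACGTG.

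In AIMD mice, the carriers Slc16a1 and Slc5a8, the chaperone Bsg and the receptor Ffar2 were significantly lower and Slc16a3 was significantly higher than in vehicle-treated mice (limma, adjusted p under 0.05). Across the whole table, 36.1% of the 11983 tested genes passed this threshold, 19.4% higher and 16.7% lower in AIMD. Slc16a3 and Ffar2 passed the filter of 0.5 FPKM in 7 mice through the group in which they were high, so the 5 calls among 5 tested members are not read as a result in themselves. The median log2 difference of the 5 was -0.84 and that of all tested genes 0.01. In whole tissue, fewer cells of a type and less RNA per cell cannot be told apart.

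Slc16a1, the carrier MCT1, ranged from 212 to 333 FPKM with a median of 293 in AIMD mice, and from 299 to 650 (median 535) in vehicle-treated mice. All vehicle-treated mice but replicate 8 exceeded the highest AIMD mouse, and that replicate still lay above 5 of the 7 AIMD mice. The mean was 276 ± 50.4 FPKM (SD, n = 7) against 518 ± 119 (SD, n = 8), a log2 difference of -0.89 ± 0.17 (SE, 95% interval -1.25 to -0.53, limma adjusted p = 0.000936). At these levels depth was no limit, since each library held at least 5787 reads of the gene. It ranked 102nd of all expressed genes in vehicle-treated and 186th in AIMD mice by mean FPKM. As a share of all reads in a library its median was 0.136% in AIMD and 0.223% in vehicle-treated mice (exact permutation p = 0.00233).

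Slc5a8, the sodium-coupled carrier SMCT1, had a lowest, median and highest level of 15.9, 19.9 and 39.2 FPKM in AIMD and of 23.0, 49.9 and 66.3 FPKM in vehicle-treated mice. The groups overlapped through 2 mice, AIMD replicate 4 at 39.2 and vehicle replicate 8 at 23.0, and 6 of 7 AIMD mice lay below every vehicle-treated mouse. It fell by 1.15 ± 0.21 on the log2 scale (SE, limma adjusted p = 0.000625), from a mean of 49.1 ± 13.3 (SD, n = 8) to 21.9 ± 7.89 FPKM (SD, n = 7). Without the 3 libraries high in Fabp6 it fell by 1.37 (limma adjusted p = 0.000135). All 3 belong to the same clock set, so Fabp6 and the clock cannot be told apart in this fit.

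Slc5a12, the low-affinity relative of Slc5a8, was at 0 in all 8 vehicle-treated mice. Among AIMD mice only replicates 1 and 6 had reads, 1 and 2, each fewer than the 3 reads that a count of 0 in a library allows. No fold change is given.

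Bsg, the chaperone of both MCTs, was the most abundant of the 9 genes in every mouse, at 626 to 1006 FPKM with a median of 797 in AIMD and at 942 to 1681 (median 1110) in vehicle-treated mice. Of the 7 AIMD mice, 6 lay under the whole vehicle-treated range, and vehicle replicate 1 was the highest by far. It fell by 0.53 ± 0.15 on the log2 scale (SE, limma adjusted p = 0.0122), from 1151 ± 245 (SD, n = 8) to 794 ± 130 FPKM (SD, n = 7). The call depended on the scaling. When the FPKM of each mouse were rescaled to a sum of 1000000, which moved the median gene up by 0.33 (log2), the difference was -0.17 with a limma adjusted p of 0.366, or -0.50 relative to the median gene.

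Slc16a3, the carrier MCT4, was 0.203 to 0.510 FPKM (median 0.364) in vehicle-treated mice and 1.42 to 3.67 (median 2.24) in AIMD mice. Every AIMD mouse exceeded every vehicle-treated mouse, and of all tested genes 8.56% had groups without overlap. The mean was 2.41 ± 0.740 (SD, n = 7) against 0.367 ± 0.0983 FPKM (SD, n = 8), 6.58 times as high. On the log2(FPKM + 0.5) scale, which understates low genes, the difference was 1.71 ± 0.15 (SE, limma adjusted p = 6.35e-07), and on the recovered reads it was 2.71 (limma voom adjusted p = 6.27e-07). These are few reads, 127 to 262 in a library of AIMD mice and 11 to 21 in one of vehicle-treated mice.

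**Figure D1:**
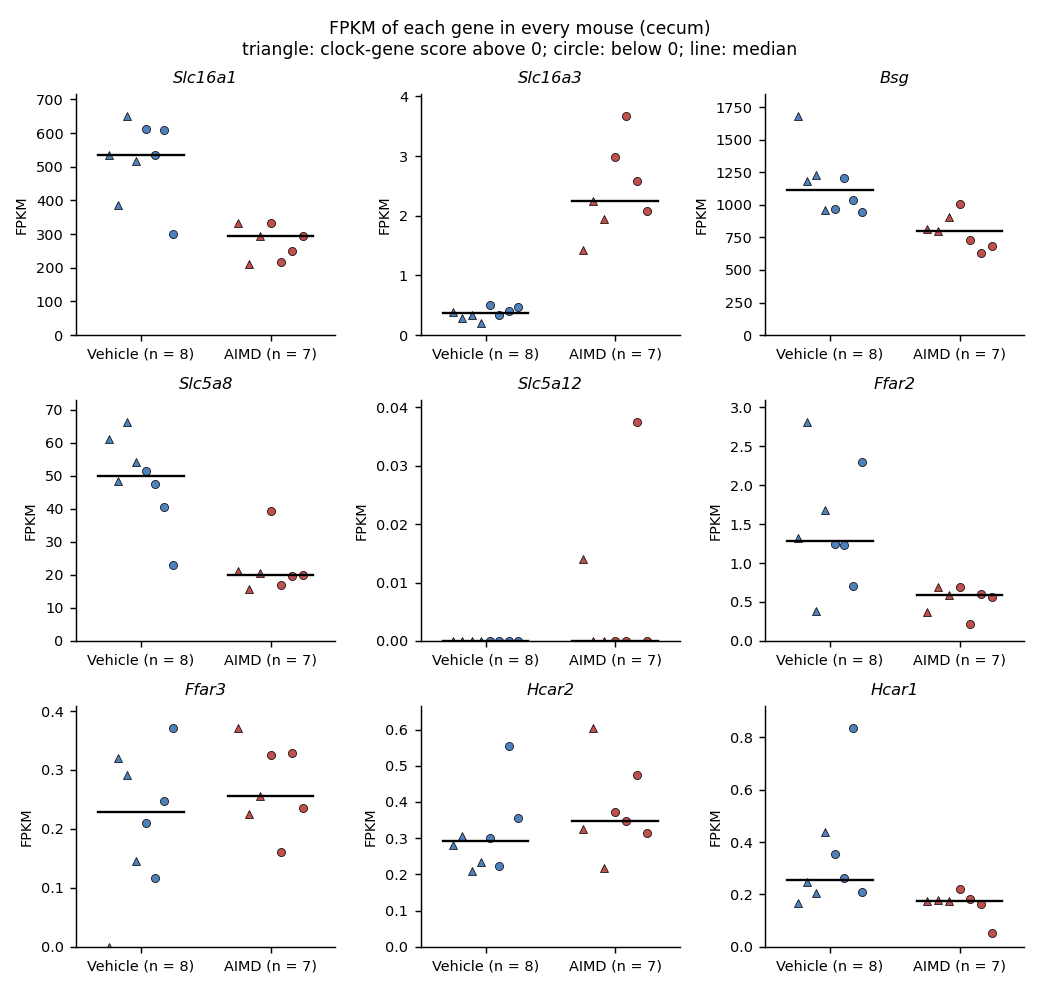
FPKM (vertical axis, linear from 0) of the 9 genes in every mouse, with 8 vehicle-treated mice in blue and 7 AIMD mice in red; the line is the group median, and triangles and circles mark mice with a clock-gene score above and below 0. Only Slc16a3 separates the groups completely, while Slc16a1, Slc5a8 and Bsg overlap through 1 to 3 mice a group and Ffar3, Hcar2 and Hcar1 stay below 1 FPKM.

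Ffar2, the acetate and propionate receptor of enteroendocrine and immune cells, was 0.214 to 0.689 FPKM with a median of 0.585 in AIMD and 0.387 to 2.81 (median 1.28) in vehicle-treated mice. All vehicle-treated mice but replicate 3 exceeded the highest AIMD mouse. The mean fell from 1.46 ± 0.792 (SD, n = 8) to 0.529 ± 0.175 FPKM (SD, n = 7), a difference of -0.84 ± 0.23 on the log2(FPKM + 0.5) scale (SE, limma adjusted p = 0.00975). On the recovered reads it was -1.41 (log2, limma voom adjusted p = 0.00693). A library held 8 to 31 reads of Ffar2 in AIMD and 8 to 106 in vehicle-treated mice. At a filter of 1 FPKM in 7 mice Ffar2 was no longer tested.

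The other 3 receptors were below 0.85 FPKM in every mouse and did not pass the filter. Hcar1, the lactate receptor, was 0.0528 to 0.219 FPKM with a median of 0.176 in AIMD and 0.166 to 0.837 (median 0.255) in vehicle-treated mice, which overlapped. Its mean log2 difference was -0.31 (two-sided exact permutation p = 0.0117, 1 of 9 such tests on the members), but with all genes tested and no filter the limma adjusted p was 0.113. A library held at most 18 reads of Hcar1.

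Ffar3 was 0.161 to 0.371 FPKM with a median of 0.256 in AIMD mice and 0 to 0.371 (median 0.229) in vehicle-treated mice. Hcar2, the butyrate and niacin receptor, was 0.218 to 0.605 FPKM with a median of 0.347 in AIMD and 0.210 to 0.554 (median 0.292) in vehicle-treated mice. Neither differed detectably at this depth. The 95% interval of the difference in log2(FPKM + 0.5) was -0.10 to 0.36 for Ffar3 (exact permutation p = 0.272) and -0.10 to 0.34 for Hcar2 (p = 0.241, exact permutation), from limma without a filter.

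**Figure D2:**
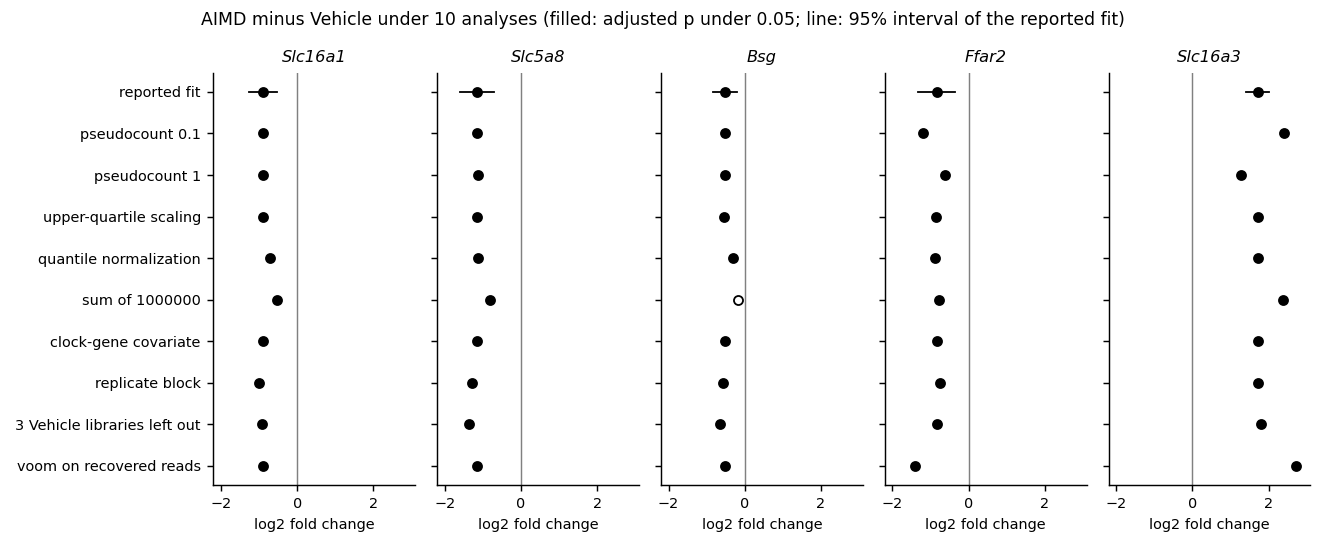
Log2 fold change of AIMD against vehicle-treated mice (horizontal axis) of the 5 tested members under 10 analyses (rows). Filled points passed an adjusted p of 0.05, and the line on the first row is the 95% interval. All points of Slc16a1, Slc5a8, Bsg and Ffar2 lie below 0 and all of Slc16a3 above, and the single open point is Bsg at -0.17 after rescaling to a sum of 1000000.

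The order of the levels, which FPKM allows since it is per length, was Bsg, Slc16a1, Slc5a8 in both groups, and each exceeded the next in every mouse. In vehicle-treated mice Ffar2 followed and exceeded Slc16a3 in 8 of 8, whereas in AIMD mice Slc16a3 came before Ffar2 in 7 of 7. Below these, Hcar2 exceeded Hcar1 in 7 of 7 AIMD mice, with means of 0.380 ± 0.125 and 0.163 ± 0.0519 FPKM (SD, n = 7), and Ffar3 at 0.272 ± 0.0731 exceeded Hcar1 in 6 of 7. An AIMD library held only 6 to 14 reads of Hcar2, 4 to 12 of Ffar3 and 2 to 11 of the longer Hcar1, so this order rests on few reads. The 3 vehicle-treated levels lay within each other's spread, and Hcar2 exceeded Hcar1 in 4 of 8.

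The balance of the 2 MCTs is given by their ratio within each mouse, a description with no test since it combines the differences given above. The log2 ratio of Slc16a3 to Slc16a1 was -6.58 ± 0.55 (SD, n = 7) in AIMD and -9.18 ± 0.43 (SD, n = 8) in vehicle-treated mice. It was higher by 2.60 in AIMD and did not overlap between the groups, and neither did Slc16a3 alone. Slc16a1 nonetheless remained the main carrier of its family in both groups. Its share of the summed FPKM of the 14 Slc16 genes was 80.0% to 86.7% with a median of 85.7% in AIMD and 83.6% to 93.6% (median 92.1%) in vehicle-treated mice (exact permutation p = 0.00264), and the share of Slc16a3 was at most 1.36%. The sum itself, most of it Slc16a1, had a median of 338 FPKM in AIMD and 589 in vehicle-treated mice (exact permutation p = 0.000932). Slc16a1 alone gave the same p, so the sum and the share repeat its fall and are no separate results for the family.

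The 2 carriers that fell were compared by their ratio within each mouse. The log2 ratio of Slc5a8 to Slc16a1 was -3.66 ± 0.29 (SD, n = 7) in AIMD and -3.40 ± 0.30 (SD, n = 8) in the vehicle group. The groups differed by -0.26 (exact permutation p = 0.113). It passed 0.05 without AIMD replicate 4 (-0.36, exact permutation p = 0.0200) and without vehicle replicate 7 (-0.33, p = 0.0437). With any other single mouse left out the exact permutation p was 0.0880 to 0.202. The ratio also passed without the 3 libraries high in Fabp6 (-0.44, exact permutation p = 0.0227), which all belong to the same clock set. The log2 ratio of Bsg to the sum of both MCTs was 1.52 ± 0.25 in AIMD and 1.17 ± 0.42 in vehicle-treated mice (SD, n = 7 and 8), and the difference of 0.35 gave an exact permutation p of 0.0712. It passed 0.05 without vehicle replicate 1, 2 or 8 (0.42, 0.42 and 0.42, exact permutation p = 0.0373, 0.0420 and 0.0367). With any other single mouse left out the exact permutation p was 0.0569 to 0.137.

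**Figure D3:**
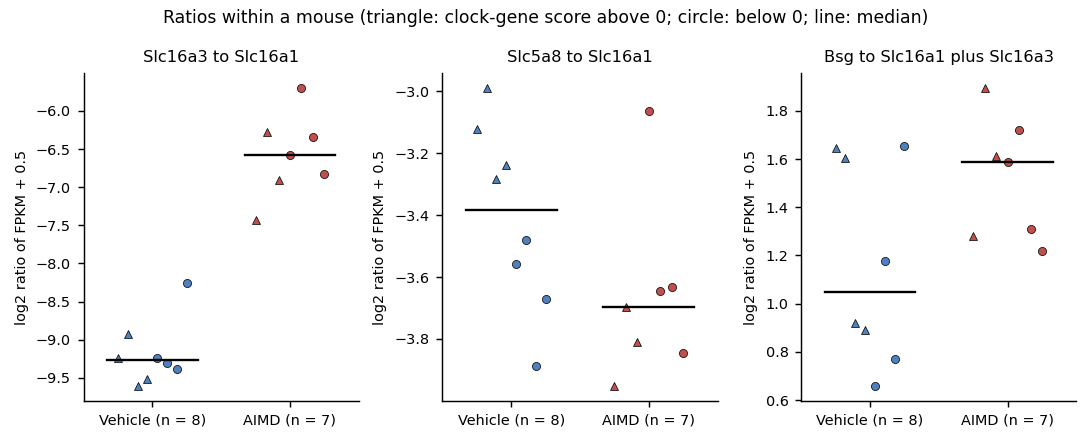
Log2 ratio of FPKM + 0.5 (vertical axes) within each mouse for Slc16a3 to Slc16a1, Slc5a8 to Slc16a1 and Bsg to Slc16a1 plus Slc16a3, with the group median as a line and triangles and circles for clock-gene scores above and below 0. The first ratio separates the groups, from -7.44 to -5.70 in AIMD and from -9.61 to -8.26 in vehicle-treated mice, and the other ratios overlap.

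Within the clock sets the 5 tested members kept their directions. Slc16a1 differed by -0.90 (log2) between the 3 AIMD and 4 vehicle-treated mice with a score above 0 and by -0.87 between the other 4 and 4, each with an exact permutation p of 0.0571. Slc16a3 did not overlap in either set (1.54 and 1.81, exact permutation p = 0.0286 in each, the smallest these sets allow). Slc5a8 differed by -1.57 (p = 0.0286) where the score was above 0 and by -0.77 (p = 0.0571) where it was below, both by exact permutation. The difference between the sets was -0.79 ± 0.39 (SE) for Slc5a8, with a limma adjusted p of 0.993. Bsg differed by -0.56 (p = 0.0571) and -0.46 (p = 0.0857) and Ffar2 by -0.83 (p = 0.143) and -0.84 (p = 0.0286) in the same order of the sets, by exact permutation. Sets of this size limit the precision.

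Among mice of a group, Slc16a1 and Slc5a8 varied together. After subtraction of the group means, Pearson's r was 0.75 over 15 mice (permutation p = 0.00232, adjusted 0.0232 over the 10 pairs of tested members) and Spearman's rho was 0.57 (permutation p = 0.0248, adjusted 0.116). Without vehicle replicates 2 and 8, the mice farthest from the median of Slc16a1, r was 0.63, and within the clock sets it was 0.65 (n = 7) and 0.81 (n = 8). The next pairs were Slc16a1 with Ffar2 (r = -0.60, permutation p = 0.0388, adjusted 0.129; rho = -0.60, p = 0.0263, adjusted 0.116), which went to -0.31 without vehicle replicates 2 and 8, and Slc5a8 with Bsg (r = 0.58, p = 0.0381, adjusted 0.129; rho = 0.55, p = 0.0349, adjusted 0.116), which went to 0.41 without AIMD replicate 4 and vehicle replicate 8. Slc16a3 followed none of the others, with r between -0.28 and -0.08.

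The genes most like each member across the 15 mice, by Pearson's r of the same centred values, were Zadh2 (0.95), Rfesd (0.93) and Marcks (0.93) for Slc16a1, and Tlr1 (0.92), Brd8 (0.89) and Dmbt1 (0.88) for Slc5a8. For Bsg they were Hsbp1 (0.93), Ap2s1 (0.92) and Akr1a1 (0.92), for Ffar2 Zfp395 (0.80), Ttll1 (0.79) and the goblet cell mucin Muc2 (0.78), and for Slc16a3 Upb1 (0.78), Ctsf (0.77) and Hmox1 (0.74). Of these 15 genes, Ctsf was higher (0.83 ± 0.29, SE, limma adjusted p = 0.0314) and Muc2 lower in AIMD (-0.77 ± 0.24, SE, limma adjusted p = 0.0190). These correlations describe likeness over 15 mice and carry no test.

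Among the other Slc16 carriers and the second MCT chaperone Emb, 1 of 6 tested genes was higher and 2 were lower. Slc16a5 (MCT6) rose from 15.3 ± 4.80 to 30.7 ± 4.55 FPKM (limma adjusted p = 0.000173) and was the second most abundant Slc16 gene in AIMD mice, a place that Slc16a9 held in vehicle-treated mice. The carnitine carrier Slc16a9 fell from 24.5 ± 5.57 to 11.7 ± 1.29 FPKM without overlap (limma adjusted p = 2.12e-05). Slc16a13 fell from 6.87 ± 1.33 to 4.03 ± 0.518 FPKM (limma adjusted p = 0.000698), but not past the threshold when rescaled to a sum of 1000000 (-0.38, limma adjusted p = 0.0922), where the list had 2 higher genes and 1 lower. Embigin was 1.75 ± 0.622 FPKM in AIMD and 1.52 ± 0.626 in vehicle-treated mice (SD, n = 7 and 8 throughout).

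None of the 3 tested Slc5 relatives passed the threshold, at log2 differences of -0.24 to 0.31. The glucose carrier Slc5a1 was 29.4 ± 7.42 FPKM in AIMD and 24.0 ± 8.20 in vehicle-treated mice (limma adjusted p = 0.209). Of the exchangers that move protons, chloride and bicarbonate across the same membrane, 2 of 6 tested were higher and none lower. The sodium-proton exchanger Slc9a3 (NHE3) rose from 0.163 ± 0.242 to 4.81 ± 3.90 FPKM without overlap, by 2.73 ± 0.35 on the log2(FPKM + 0.5) scale (SE, limma adjusted p = 2.73e-05). It passed the filter through the AIMD group, so its call and the count are not read as results in themselves. Of all tested genes 8.56% had groups without overlap. Slc9a2 (NHE2) rose from 63.3 ± 14.1 to 106 ± 20.0 FPKM (limma adjusted p = 0.00185). The chloride-bicarbonate exchanger Slc26a3 was 466 ± 104 FPKM in AIMD and 445 ± 192 in vehicle-treated mice (limma adjusted p = 0.661).

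Of 10 other receptors of fatty acids and metabolites, 2 were tested. Gpr35 rose from 2.14 ± 0.510 to 3.07 ± 0.335 FPKM (limma adjusted p = 0.0101). The long-chain fatty acid receptor Ffar4 (GPR120) was at 12.8 ± 3.88 FPKM in AIMD and 17.8 ± 4.64 in vehicle-treated mice (limma adjusted p = 0.0617), and it passed the threshold as lower under upper-quartile scaling and quantile normalization. Of the 11 G protein α-subunits and arrestins that act downstream, all were tested and 2 were higher. Gnai2, an inhibitory subunit, rose from 17.5 ± 6.97 to 29.9 ± 6.82 FPKM (limma adjusted p = 0.0100) and Gna13 from 13.1 ± 2.61 to 21.6 ± 4.22 (limma adjusted p = 0.00169). The β-arrestin Arrb2 fell from 2.77 ± 1.23 to 1.67 ± 0.385 FPKM (limma adjusted p = 0.0261). Rescaled to a sum of 1000000, Arrb2 lost its call (limma adjusted p = 0.333), and the list had 6 higher genes and none lower.

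Among the enzymes that activate and oxidize short-chain fatty acids, 4 of 11 tested genes were lower and 1 was higher, with a median log2 difference of -0.31. Hadh, which carries out a step of β-oxidation, fell from 229 ± 49.2 to 125 ± 23.1 FPKM (limma adjusted p = 0.00093), the propionyl-CoA carboxylase subunit Pccb from 77.6 ± 21.2 to 51.3 ± 9.55 (limma adjusted p = 0.0194) and the acetyl-CoA synthetase Acss2 from 6.19 ± 1.02 to 4.09 ± 0.597 (limma adjusted p = 0.00274). The thiolase Acat1 rose from 28.4 ± 6.07 to 44.0 ± 6.46 FPKM without overlap (limma adjusted p = 0.00378). Acads, the short-chain acyl-CoA dehydrogenase, was 56.7 ± 17.7 FPKM in AIMD and 77.0 ± 31.2 in vehicle-treated mice (limma adjusted p = 0.241). Rescaled to a sum of 1000000, the list had 1 lower and 2 higher genes, Pccb and Acss2 lost their calls, and its median was 0.05 with the median gene at 0.34.

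Of the 8 genes of lactate and pyruvate, all tested, the lactate dehydrogenase subunits moved apart. Ldha, the subunit of glycolytic tissues, rose from 423 ± 42.4 to 848 ± 114 FPKM without overlap, by 1.00 ± 0.12 (log2, SE, limma adjusted p = 1.47e-05). Ldhb fell from 5.44 ± 4.00 to 2.19 ± 0.569 FPKM, by 0.99 ± 0.26 (log2, SE, limma adjusted p = 0.00747), and by 0.74 without passing the threshold when rescaled to a sum of 1000000 (limma adjusted p = 0.0587). The other 6 did not pass the threshold, and Pdhb had the highest level of them, 96.8 ± 20.0 FPKM in AIMD and 126 ± 30.4 in vehicle-treated mice (limma adjusted p = 0.103).

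**Figure D4:**
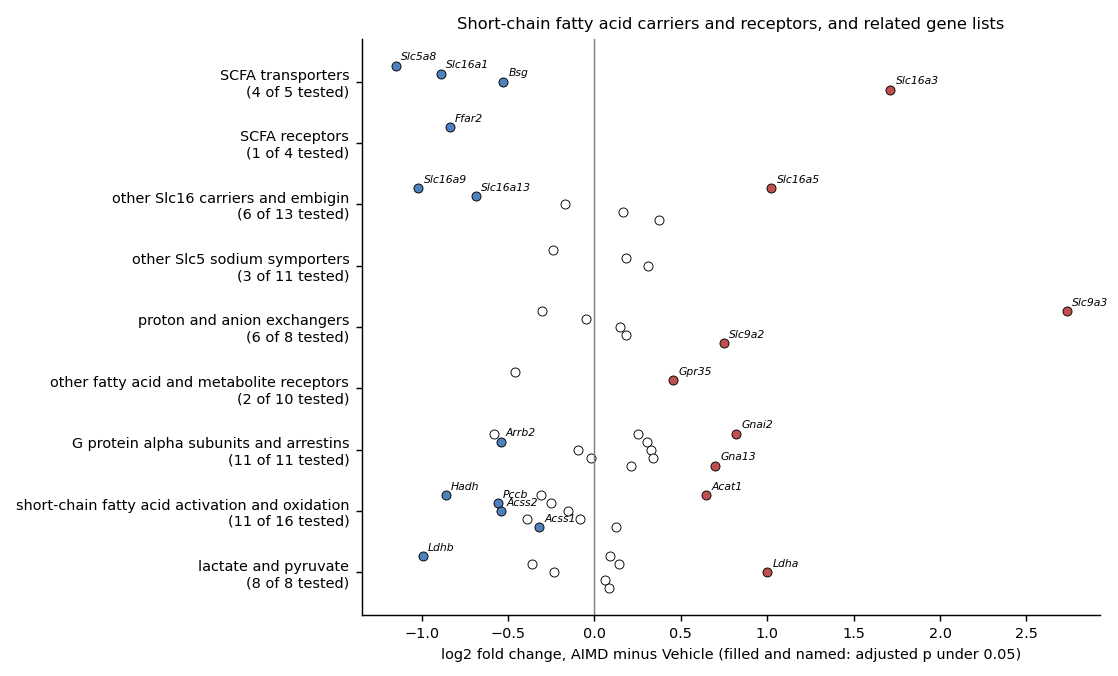
Log2 fold change of AIMD against vehicle-treated mice (horizontal axis) for every tested gene of the carriers, receptors and related lists (rows, with the number tested of the number listed). Filled and named points passed the adjusted p threshold, red if higher and blue if lower in AIMD. Slc9a3 at 2.73 and Slc16a3 at 1.71 lie farthest to the right, and Slc5a8 at -1.15 farthest to the left.

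The cell types that express these genes were followed by lists of marker genes, as summed FPKM in each mouse. The summed colonocyte markers did not differ detectably (median 38452 in AIMD and 36633 in vehicle-treated mice, exact permutation p = 0.329), and Car1 and Lypd8 made up most of the sum. Of the 8 genes 2 were higher and 1 was lower, against 4 higher and 1 lower when rescaled to a sum of 1000000 and 5 higher and 1 lower after quantile normalization. Markers of L cells and other enteroendocrine cells, in which Ffar2 and Ffar3 are known to be expressed, summed to 183 to 291 FPKM in AIMD mice. In vehicle-treated mice they summed to 53.0 to 90.9 without overlap (exact permutation p = 0.0001554, the smallest that the 6435 splits of the mice can give). Of 7 tested genes 4 were higher and 1 was lower, and Pax6 was below 0.5 FPKM in every mouse. The hormone genes Gcg, Pyy and Insl5 averaged 107, 65.2 and 42.8 FPKM in AIMD and 16.5, 23.4 and 1.03 in vehicle-treated mice. Scg2 was the lower gene (log2 -1.21, limma adjusted p = 0.0184). Chga and Neurod1 did not pass the threshold (0.04 and 0.04, limma adjusted p = 0.865 and 0.889). Macrophage markers were 76.4 to 246 FPKM in AIMD and 53.0 to 98.6 in vehicle-treated mice (4 of 8 genes higher, exact permutation p = 0.00218). Lyz2 made up most of that sum, at means of 113 FPKM in AIMD and 43.9 in vehicle-treated mice. Mrc1 and C1qc had lower means in AIMD without passing the threshold (limma adjusted p = 0.0515 and 0.683). B and T cell markers were 11.4 to 58.2 FPKM in AIMD and 31.7 to 78.0 in vehicle-treated mice (2 of 9 genes lower, exact permutation p = 0.0120).

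Neutrophil markers, of a cell that carries Ffar2 and Hcar2, were near 0, at 0.0835 to 6.24 FPKM in AIMD and 0.0423 to 0.666 in vehicle-treated mice (exact permutation p = 0.0230), with Cxcr2, Mmp8 and Camp at a median of 0. Adipocyte markers, of the main site of Hcar1, were 12.0 to 20.6 FPKM in AIMD and 11.6 to 48.5 in vehicle-treated mice (exact permutation p = 0.232). Most of that sum was Cidec, at means of 14.5 FPKM in AIMD and 15.3 in vehicle-treated mice (limma adjusted p = 0.941). Adipoq was lower in AIMD (log2 -1.44, limma adjusted p = 0.0214), Cfd did not pass the threshold (-1.45, limma adjusted p = 0.0989), and Plin1 and Lep had a median of 0. Red blood cell markers, of a cell rich in Slc16a1 and Bsg, were in the same order 22.6 to 61.6 and 34.6 to 124 FPKM (2 of 5 tested genes lower, exact permutation p = 0.0381), with Slc4a1 at a median of 0. Smooth muscle markers were 120 to 522 and 266 to 1913 FPKM (exact permutation p = 0.0862), and small intestinal markers, Fabp6 included, 43.5 to 283 and 11.9 to 1759 (exact permutation p = 0.664). Of the 5 small intestinal markers tested, 3 were higher in AIMD and none lower, namely Apoa4 (1.66, limma adjusted p = 0.0203), Ada (1.54, limma adjusted p = 5.26e-05) and Gsta1 (1.25, limma adjusted p = 0.000151), whereas the mean of Fabp6 was 46.2 FPKM in AIMD and 489 in vehicle-treated mice (limma adjusted p = 0.522). Rescaled to a sum of 1000000, 5 enteroendocrine genes were higher and none lower, 6 macrophage genes were higher, 1 B or T cell gene was higher and 1 lower, and no red blood cell gene was lower. The part of these cells in the members' differences was not tested. Without the 3 libraries high in Fabp6 the 5 members remained called, at -0.93 for Slc16a1, 1.80 for Slc16a3, -0.65 for Bsg and -0.84 for Ffar2 (limma, log2).

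**Figure D5:**
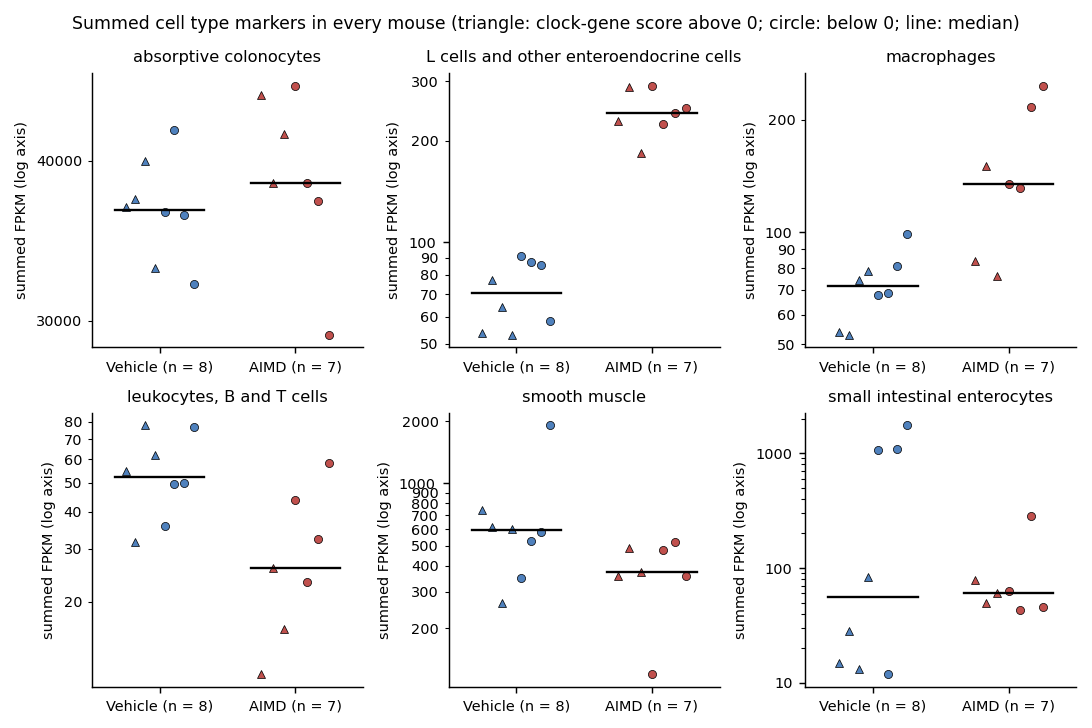
Summed FPKM (vertical axes, logarithmic) of 6 lists of cell type markers in every mouse, with the group median as a line and triangles and circles for clock-gene scores above and below 0. Only the enteroendocrine list separates the groups, and vehicle replicates 5, 7 and 8 stand above 1000 in the small intestinal list, of which Fabp6 makes up at least 97.6% in these 3.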

How the data were processed

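Poly-A RNA of the cecum of 15 mice (7 AIMD, 8 vehicle) was sequenced with stranded libraries and 50-base single reads. Per the labels and the methods, the authors mapped reads to GRCm38 with STAR and counted them with featureCounts and GENCODE. The deposited FPKM values stand by gene symbol, unpooled, and nearly equal size factors (1.01 in every mouse) show that they were already scaled between mice. Of 45808 rows, 4 with repeated symbols were left out. Whole reads were recovered from the FPKM steps for 24278 of 24279 genes above 0 (tolerance 0.05 read), 68.7% by the GENCODE M21 exon length and the others by another length.

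FPKM were divided by size factors, 0.5 was added and log2 taken. The 11983 genes with FPKM of at least 0.5 in 7 mice were fitted with limma 3.58.1 (R 4.3.3, eBayes with trend, Benjamini–Hochberg, adjusted p under 0.05). Single values were compared by two-sided exact permutation over 6435 splits, with Python 3.11.15 and scipy 1.17.1. Correlations used 100000 permutations within groups. Limma voom was run on recovered reads as an alternative, and scripts were tested on simulated data. Intervals and floors cover counting error or the spread between these mice only.

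Members, lists and tests were chosen with earlier results of these data known. Named genes are the members, up to 3 significant rises and falls of each list, list genes above 50 FPKM in a group and the 3 genes most correlated with each member. Slc5a1, Emb, Ffar4, Acss1, Pax6, Adipoq, Cxcr2, Mmp8, Camp, Plin1, Lep, Slc4a1, Chga, Neurod1, Mrc1, C1qc, Cidec and Cfd were named after their values were seen. Promoters are from RefSeq, matched by symbol for 6 of 9 members.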

Additional observations from a re-analysis of the deposited data

Results flagged for a closer look

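A mouse stood far from the others of its group in 7 of 24 sets of values examined by Dixon's criterion, which chance alone exceeds in about 1 of 20 sets at either end. Slc5a8 was 39.2 FPKM in AIMD replicate 4, above the next AIMD mouse at 21.0, and the log2 ratio of Slc5a8 to Slc16a1 was -3.06 in the same mouse. Bsg was 1681 FPKM in vehicle replicate 1. Vehicle replicate 7 was high for both neighbours on chromosome 5, with Hcar2 at 0.554 and Hcar1 at 0.837 FPKM, while Hcar1 was lowest in AIMD replicate 7 at 0.0528. Slc5a12 was 0.0375 FPKM in AIMD replicate 6, which is 2 reads.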

How the results depend on the processing

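Under the alternatives run, Slc16a1, Slc5a8, Slc16a3 and Ffar2 kept their direction and their call wherever they were tested. Rescaling to a sum of 1000000 ended the call of Bsg (-0.17, limma adjusted p = 0.366 and exact permutation p = 0.224), turned the split of all calls to 4467 higher and 705 lower (86.4% higher against 53.8%), raised Ffar3 to 0.39 (exact permutation p = 0.0423) and Hcar2 to 0.40 (p = 0.0159), and left Hcar1 at -0.30 (p = 0.147), with the median gene moved by 0.33. The sign of Acss1, 1 of the 4 lower oxidation genes, changed under this scaling (-0.32 to 0.03), as did the median of that list (-0.31 to 0.05). 2 alternatives were chosen after seeing the data. Limma voom on recovered reads with no filter called 3878 genes lower. Without the 3 vehicle libraries high in Fabp6 Hcar2 differed by 0.22 (exact permutation p = 0.0366) and the Slc5a8 to Slc16a1 ratio by -0.44 (p = 0.0227).

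With single mice left out, the 5 calls held, at -0.998 to -0.83 for Slc16a1, -1.30 to -1.08 for Slc5a8, -0.59 to -0.44 for Bsg, -0.99 to -0.71 for Ffar2 and 1.62 to 1.81 for Slc16a3. Hcar2 ranged from 0.064 to 0.18, with an exact permutation p of 0.0460 without vehicle replicate 7 and of 0.111 to 0.496 otherwise. The Slc5a8 to Slc16a1 ratio ranged from -0.36 to -0.20 and the Bsg ratio from 0.28 to 0.42.

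No pairing of the mice by replicate number was seen: same-numbered mice had correlations of deviations of -0.35 to 0.43, and 1 of 7 AIMD mice correlated best with its own number. With so few mice, and no cage or hour of sacrifice given, these correlations cannot exclude a pairing. A replicate block changed none of the 5 calls (Slc16a1 -0.998, Slc5a8 -1.30, Bsg -0.56, Ffar2 -0.75, Slc16a3 1.74) and gave 2389 genes higher and 2262 lower. The cause of these changes was not tested. Depth limits Ffar3, Hcar2, Hcar1 and Slc5a12, with at most 18 reads in a library.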
